A study of Mus musculus with 60 samples.

Results

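The sarcomas of mice that express a CD74-NRG1 fusion protein were compared with normal lung of the same mouse line. The libraries whose titles name a sarcoma (7, from 6 mice) and those whose titles name lung (7, from 7 mice) were taken, 14 of the 60 libraries of the series. Counts of both sarcoma libraries of M00245 were added together, so that each mouse counted once. The series used a Rosa26 allele in which a stop cassette flanked by FRT sites precedes CD74-NRG1, and a FLP-deleter allele (Rosa26Flp) that removes the cassette early in the embryo. All sarcoma and lung samples came from such Rosa26CD74-NRG1/Flp mice, so the lungs carried the fusion gene too, in a setting of nearly ubiquitous expression, and no mouse without it was among these tissues. Per the labels, RNA was taken from frozen tissue sections and libraries were made with a kit that reads the 3′ ends of transcripts. The labels state no age, sex or treatment of the mice. Sarcoma and lung both came from mice M00237, M00238, M00245 and M00248, sarcoma alone from M00235 and M00236, and lung alone from M00246, M00247 and M00249. In the comparison of all mice, which has no term for the mouse, the p-values measure the spread between mice within each tissue.

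NRG1 is a growth factor of the EGF family. It binds the receptors ERBB3 and ERBB4, which signal together with ERBB2 through the MAP kinase ERK and the kinase AKT. In the peripheral nerve this pathway carries the lineage from neural crest through Schwann cell precursors to Schwann cells, which express the transcription factor SOX10 and the receptor ERBB3 throughout. The lung consists mainly of alveoli, lined by flat type 1 cells for gas exchange and by type 2 cells that secrete surfactant, of airways with club and ciliated cells, and of a dense capillary bed with resident immune cells. CD74 is the invariant chain of MHC class II, and CD74-NRG1 fusions are known from human lung adenocarcinoma.

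Sarcoma libraries held 4837440 to 7953142 counts and lung libraries 6592664 to 8121091, so that 3 counts corresponded to 0.369 to 0.620 CPM (counts divided by the library total, scaled alike in every library). Mitochondrial genes took 6.83 to 13.4% of counts in sarcoma and 6.28 to 14.2% in lung. Levels below are CPM, given as the lowest, the median and the highest mouse of a group. They are not divided by gene length and are compared for 1 gene at a time. Fold changes are log2 values of sarcoma over lung with their standard error (SE), from the same test as the calls. The lung of mouse M00238 stood apart: across genes its log2 levels correlated with those of the other lungs at 0.798 to 0.830, against 0.899 to 0.958 among the other 6. Calls of named genes that turned on it are given with the gene. Leaving out 1 mouse moved the fold change of some genes, before log2 was taken, by over 1.5 times. Where such a gene passed and its log2 fold change is given below, the log2 value without that mouse is given in the same paragraph. Among the genes named below that passed the test, the ranges of the groups overlapped, after scaling, in Areg, Btc, Cdc20, Cdc6, Cdk1, Ciita, Col4a3, Dnmt1, Egfr, Erbb2, Gap43, Hba-a1, Hoxc6, Ier3, Igf2, Igfbp3, Kif11, Krt79, Lpl, Mki67, Mrc1, Nrg4, Plod2, Pparg, Rrm1, Syp, Top2a, Ube2c and Unc5b, and in the others they did not. Over all genes tested, the ranges did not overlap in 24.5% (3805 of 15556). For the genes picked by highest or lowest fold change, no overlap was a condition of the choice. Most list members were picked by their p-value, which favours separated groups, so the separation of either is no further result.

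In all, 6520 of 15556 genes tested (41.9%) differed between sarcoma and lung at an adjusted p below 0.05 (edgeR's quasi-likelihood test), of which 2817 (18.1% of all tested) were higher in sarcoma and 3703 (23.8%) were lower. Counts of list members below stand against these shares. The median log2 fold change over all tested genes was -0.007. A difference of 2-fold or more was found for 1886 of the higher genes and 2891 of the lower ones. With the mouse as a block, which keeps only the 4 mice that gave both tissues, 4024 genes passed (1696 higher, 2328 lower). The mouse numbers form a lower series (M00235 to M00238, 4 sarcomas and 2 lungs) and a higher one (M00245 to M00249, 2 sarcomas and 5 lungs). Within the lower series 3006 genes passed and within the higher series 5905. Each gene that passed in such a subset and in the comparison of all mice had the same direction in both. The subsets are part of the same mice, so this is no independent check. Among the genes named below, the calls of Ccnd1, Cdc20, Ciita, H2-Ab1, Hba-a1, Ier3, Ifit3, Igf2, Igfbp3, Krt79, Lpl, Mrc1, Syp, Ube2c and Unc5b were lost within the lower series, with adjusted p = 0.0533 (Ifit3) to 0.39 (Unc5b). Only 2 lungs remain there, those of M00237 and M00238, and the latter is the lung that stood apart. Other such losses are given with the gene. The calls of Ciita, Igf2, Igfbp3, Lpl, Mrc1 and Syp were also lost with the mouse as a block (adjusted p = 0.0686 for Lpl to 0.363 for Syp), and those of Btc, Ifit3, Lpl, Nrg4, Pparg and Syp within the higher series (0.0554 for Ifit3 to 0.273 for Syp). In bulk tissue, fewer cells of a type and less RNA per cell cannot be told apart, which holds for every cell-type gene below.

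The 3 genes that mark the tissues followed the labels in every mouse. Sox10 (ENSMUSG00000033006), the transcription factor that defines the neural crest and Schwann lineage, measured 414, 670.1 and 902 CPM in the 6 sarcomas and 0.383, 1.02 and 2.12 CPM in the 7 lungs, a log2 fold change of 8.96 ± 0.37 (SE). Col20a1 (ENSMUSG00000016356), a collagen expressed by Schwann cell precursors, measured 202, 525 and 692 CPM in sarcoma and 0.766, 1.62 and 2.16 CPM in lung (log2 fold change 8.21 ± 0.33). Sftpc (ENSMUSG00000022097), the surfactant protein of alveolar type 2 cells, measured 5.28, 8.47 and 11.7 CPM in sarcoma and 5148, 6961 and 9499 CPM in lung (log2 fold change -9.86 ± 0.33). Each of the 3 separated the groups completely. The low Sftpc level of the sarcomas was also present in tissues other than lung, with 4.66, 6.29 and 17.7 CPM in muscle and 5.52, 10.1 and 25.4 CPM in spleen. How much of it the sarcoma cells made was not tested.

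**Figure D1:**
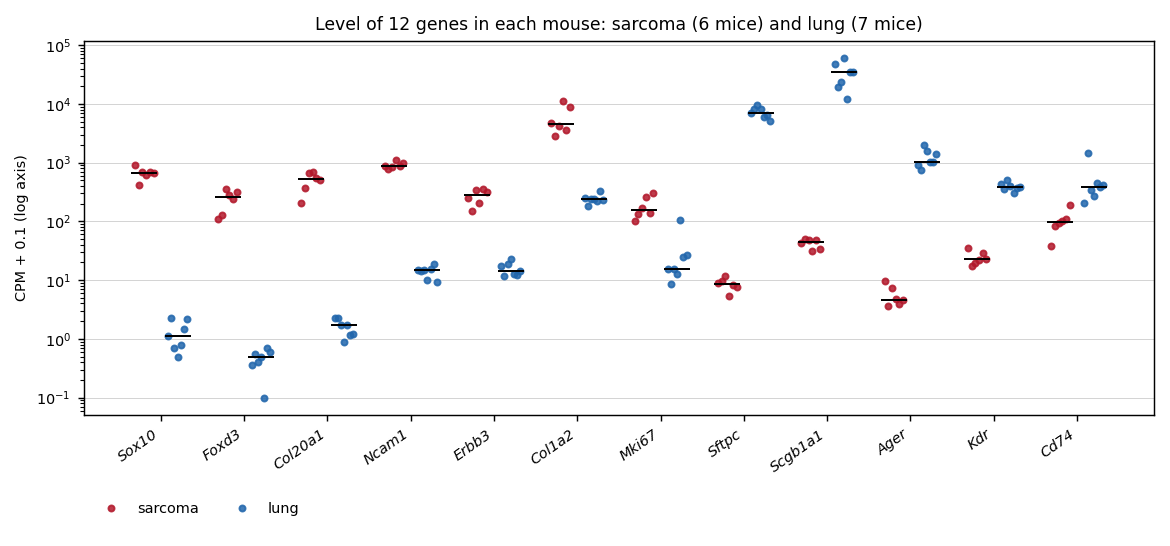
Level of 12 genes in each mouse, as CPM plus 0.1 on a log axis, for sarcoma (red, 6 mice) and lung (blue, 7 mice). Points are mice and black bars are medians. Sox10, Foxd3, Col20a1, Ncam1, Erbb3 and Col1a2 were higher in all 6 sarcomas than in all 7 lungs, while Sftpc, Scgb1a1, Ager, Kdr and Cd74 were higher in all 7 lungs. The highest lung for Mki67 is that of mouse M00247, at 105 CPM.

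The 14 highest fold changes were taken from genes that averaged at least 20 CPM in the higher tissue and did not overlap between the groups. Among them, glial and neural crest genes stood beside genes of cornified epithelium. The glial ones included Foxd3, a neural crest transcription factor (112, 260.1 and 361 CPM in sarcoma, 0, 0.383 and 0.607 in lung, log2 fold change 9.15 ± 0.41), and Pou3f1, the transcription factor OCT6 of promyelinating Schwann cells (223, 526 and 679 against 0.634, 1.05 and 1.82, 8.71 ± 0.31). Gjc3, a connexin of myelinating glia, measured 194, 289.8 and 355 CPM in sarcoma and 0, 0.128 and 1.36 CPM in lung (9.11 ± 0.55). Fabp7, a fatty acid binding protein of glial precursors, measured 36.2, 106 and 205 CPM against 0, 0.151 and 1.08 CPM (8.50 ± 0.64). Cmtm5 and Slitrk3, which encode membrane proteins found in glia and neurons, had log2 fold changes of 9.28 ± 0.52 and 9.54 ± 0.68. Leaving out 1 lung moved Fabp7 to 9.41 (M00247), Cmtm5 to 10.81 (M00249) and Slitrk3 to 10.82 (M00238). Car6, a secreted carbonic anhydrase, had 2 counts in all 7 lungs together, a ratio of 812.48 (counting interval 224.5 to 6715). Hoxb9, a trunk Hox gene, measured 3.33, 24.6 and 87.2 CPM in sarcoma and 3 counts in all 7 lungs together, a ratio of 549.71 with a counting interval of 187.72 to 2669. The epithelial ones were Sprr2a2, Flg2, Hrnr and Krt77, which belong to the cornified layer and its keratins, and Defb6, an epithelial defensin. Sprr2a2 measured 14, 61.8 and 858 CPM in sarcoma and 0, 0 and 0.541 CPM in lung (10.61 ± 1.35, or 9.11 without the sarcoma of M00236 and 11.46 without the lung of M00247). Flg2 had 2 counts in all lungs, a ratio of 1878 (counting interval 519.35 to 15510), and Defb6 had 1 count, a ratio of 1613 (289.11 to 63773).

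The 14 lowest fold changes, taken in the same way, were nearly all of alveolar or airway epithelium. Cxcl17, an airway chemokine, and Slco4c1, an organic anion transporter, had 0 counts in all sarcomas, which put them at least 439.69-fold and at least 393.05-fold lower than in lung, with 3 counts over the group as the floor. Scgb1a1, the club cell secretoglobin, measured 31.6, 45.2 and 49.4 CPM in sarcoma and 12082, 34367 and 61264 CPM in lung (log2 fold change -9.76 ± 0.53). Low levels were present elsewhere too, with 27.4, 36.2 and 53.9 CPM in muscle and 26.1, 35.1 and 98.6 CPM in liver. Sec14l3, an airway lipid transfer protein, Cxcl15, a lung-restricted chemokine, and Chia1, an acidic chitinase, had log2 fold changes of -9.61 ± 0.50, -9.36 ± 0.42 and -9.56 ± 0.61. Tspan1, an epithelial tetraspanin, had 2 counts in all sarcomas together, a ratio of 851.13 in favour of lung (counting interval 235.3 to 7033). Ear1 and Ccdc153, also among the 14, are described with their lists. By difference in level instead of fold, genes by which the sarcomas exceeded lung most included Col1a2, Sparc, Col3a1, Col1a1 and Dcn, and the lungs exceeded sarcoma most in Scgb1a1, 3 haemoglobin genes, Sftpc and Cbr2, a lung carbonyl reductase (27.2, 34.3 and 114 against 672, 4194 and 8250 CPM).

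Transcription factors of the neural crest and Schwann lineage were higher in sarcoma as a group. Of 19 listed, 17 were tested, 13 were higher and 0 lower, with a median log2 fold change of 4.83, against -0.007 over all genes. Tfap2b and Tfap2a, neural crest regulators, measured 117, 238.4 and 758 and 24.6, 33.4 and 45.6 CPM in sarcoma and 0.128, 0.455 and 2.46 and 0.135, 0.455 and 1.2 CPM in lung (log2 fold changes 8.33 ± 0.67 and 5.71 ± 0.37). Pax3, active in neural crest and immature Schwann cells, measured 19, 24.2 and 35.7 CPM in sarcoma and 0, 0 and 0.254 CPM in lung (7.97 ± 0.47). Without the lung of M00249 Tfap2b had 8.95, and without that of M00237 Pax3 had 8.56. All 3 separated the groups. Twist1, which drives mesenchymal states, and Sox9, a factor of neural crest and cartilage, had log2 fold changes of 6.10 ± 0.58 (7.06 without the lung of M00248) and 4.83 ± 0.37. Zeb2, needed for Schwann cell maturation, was already abundant in lung, with 89.5, 123 and 141 CPM against 765, 890.5 and 1171 CPM in sarcoma (2.81 ± 0.20). Sox2, a factor of immature Schwann cells that airway cells also express, measured 46.5, 80.9 and 182 CPM in sarcoma and 6.36, 19.2 and 34.2 CPM in lung (2.16 ± 0.41, adjusted p = 0.00047, and 0.0682 within the lower mouse series). The members that did not pass included Snai2 (0.48 ± 0.21) and Snai1 (-0.51 ± 0.23), factors of mesenchymal transition. Snai2 passed as higher within the higher mouse series (adjusted p = 0.0141) and without the lung of M00238 (0.0482) or the sarcoma of M00236 (0.0457), and Snai1 as lower without the lung of M00249 (0.0363). Sox8 and Olig1 were too low to test.

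Of the surface and secreted genes of Schwann cells, 26 were tested, 20 were higher in sarcoma and 1 lower, with a median log2 fold change of 3.06. Ncam1, the neural cell adhesion molecule, showed little spread among tumours, with 789, 862 and 1097 CPM against 9.36, 14.8 and 19 CPM in lung (5.89 ± 0.21). Cdh19, a cadherin of Schwann cell precursors, measured 136, 255 and 338 CPM against 0.383, 0.812 and 1.82 CPM (7.85 ± 0.34). Ngfr, the p75 neurotrophin receptor of immature Schwann cells, measured 64.7, 78.7 and 107 CPM against 0.254, 1.15 and 2.12 CPM (5.99 ± 0.29). Ptprz1, a receptor phosphatase, and S100b, a glial calcium-binding protein, had log2 fold changes of 6.15 ± 0.30 and 6.60 ± 0.36. All 5 separated the groups.

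Pmp22, a compact myelin gene that many cell types express, measured 169, 452 and 1023 CPM against 232, 292 and 368 CPM and did not pass (0.56 ± 0.26, adjusted p = 0.097). It passed as higher with the mouse as a block (0.84, adjusted p = 0.0394), with the mouse series as a covariate (0.0453), within the higher series (0.0335) and without the sarcoma of M00236 (0.0211). Gap43, a growth-cone protein also found in precursor Schwann cells, stood against the list, with 5.07, 13 and 22.9 CPM in sarcoma and 20.7, 29.2 and 40.1 CPM in lung (-1.24 ± 0.35, adjusted p = 0.0096, and 0.202 and 0.0659 within the lower and the higher mouse series).

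**Figure D2:**
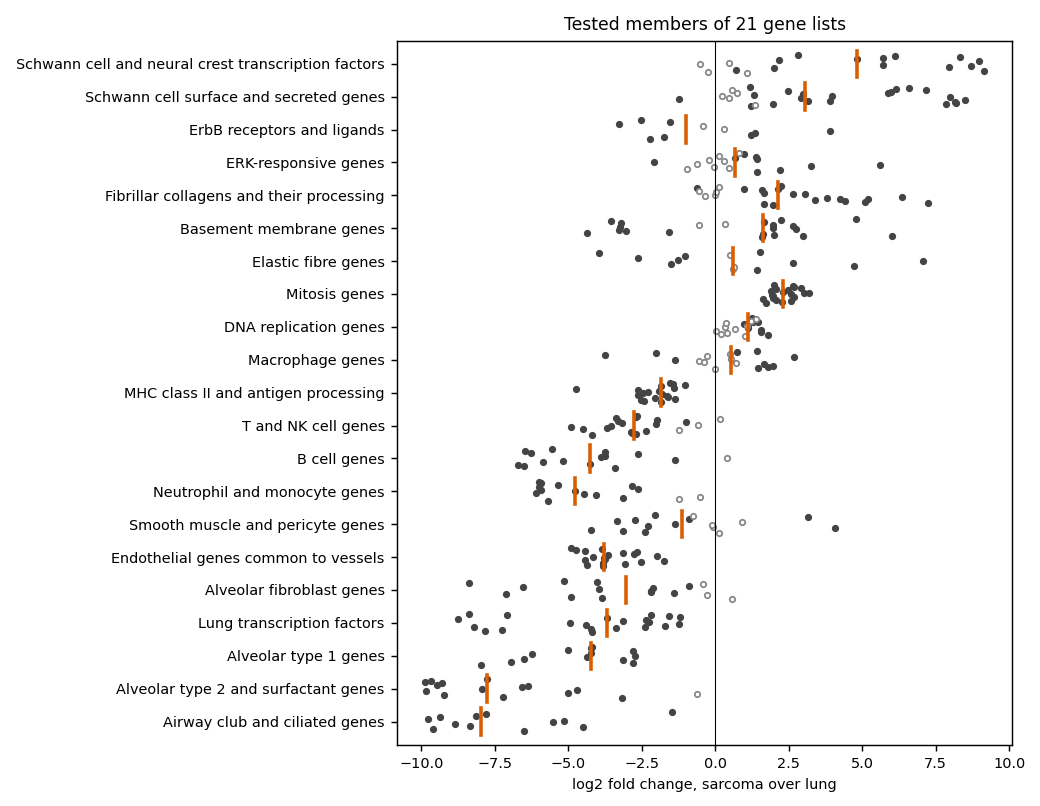
Log2 fold change of sarcoma over lung for the tested members of 21 gene lists. Filled points passed an adjusted p of 0.05, open points did not, and orange bars are list medians. The Schwann transcription factors have a median of 4.83 and the airway genes one of -7.98, and all 20 mitosis genes lie above 0.

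The ErbB receptors and their ligands went in different directions. Erbb3 (ENSMUSG00000018166), the NRG1 receptor of the Schwann lineage, measured 152, 285 and 352 CPM in sarcoma and 11.7, 14.3 and 22.7 CPM in lung, a log2 fold change of 3.92 ± 0.22 (adjusted p = 2.6e-09). Its partner Erbb2 (ENSMUSG00000062312), which binds no ligand itself, measured 18.6, 27.5 and 37 CPM against 5.75, 8.8 and 15.6 CPM (1.35 ± 0.24, adjusted p = 0.0003). These CPM ranges did not touch, but they overlapped once the CPM were scaled by edgeR's normalization factors. Egfr (ENSMUSG00000020122), the receptor of EGF and TGF-alpha, measured 24.4, 42 and 59.5 CPM in sarcoma and 11.6, 16.9 and 24.8 CPM in lung, with overlapping ranges (1.23 ± 0.22, adjusted p = 0.00031, and 0.158 within the lower mouse series). Erbb4, the other NRG1 receptor, was too low to test, at no more than 0.955 CPM in any sarcoma and 1.23 CPM in any lung.

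Nrg1 (ENSMUSG00000062991) itself did not pass the test between sarcoma and lung. It measured 15.7, 35.4 and 74.4 CPM in sarcoma and 5.37, 42.5 and 111 CPM in lung, with a log2 fold change of -0.42 ± 0.55 (adjusted p = 0.577), and the 2 lowest of the 6 sarcoma and 7 lung values were the lungs of M00246 (5.37 CPM) and M00238 (8.93 CPM). The other ligands that passed were lower in sarcoma and low in both tissues. Tgfa measured 0.796, 1.81 and 3.46 CPM in sarcoma and 5.9, 9.85 and 14.2 CPM in lung (-2.52 ± 0.38), and Nrg2 0, 0.276 and 0.753 against 2.27, 2.57 and 4.44 CPM (-3.27 ± 0.63), each without overlap. Areg, Btc and Nrg4, ligands of EGFR or ERBB4, had log2 fold changes of -2.23 ± 0.53, -1.75 ± 0.46 and -1.54 ± 0.44. The calls of Btc and Nrg4 were lost with the mouse as a block (adjusted p = 0.11 and 0.112), and within the lower mouse series the adjusted p of Tgfa, Nrg2, Areg, Btc and Nrg4 was 0.0866, 0.098, 0.0682, 0.148 and 0.22. In all, 10 of 15 listed receptors and ligands were tested, of which 3 were higher and 5 lower. Without the sarcoma of M00235, 5 were higher.

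Cd74 (ENSMUSG00000024610), the partner gene of the fusion, measured 38.2, 97 and 189.8 CPM in sarcoma and 207, 383 and 1435 CPM in lung, with the highest lung that of M00238 (log2 fold change -2.42 ± 0.43, adjusted p = 0.00027). Cd74 RNA is also made by antigen-presenting cells, and the MHC class II genes described below were lower in the same tumours. What part antigen-presenting cells had in the Cd74 difference was not tested. Whether the tags of Cd74 and Nrg1 include RNA of the fusion gene was not tested.

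**Figure D3:**
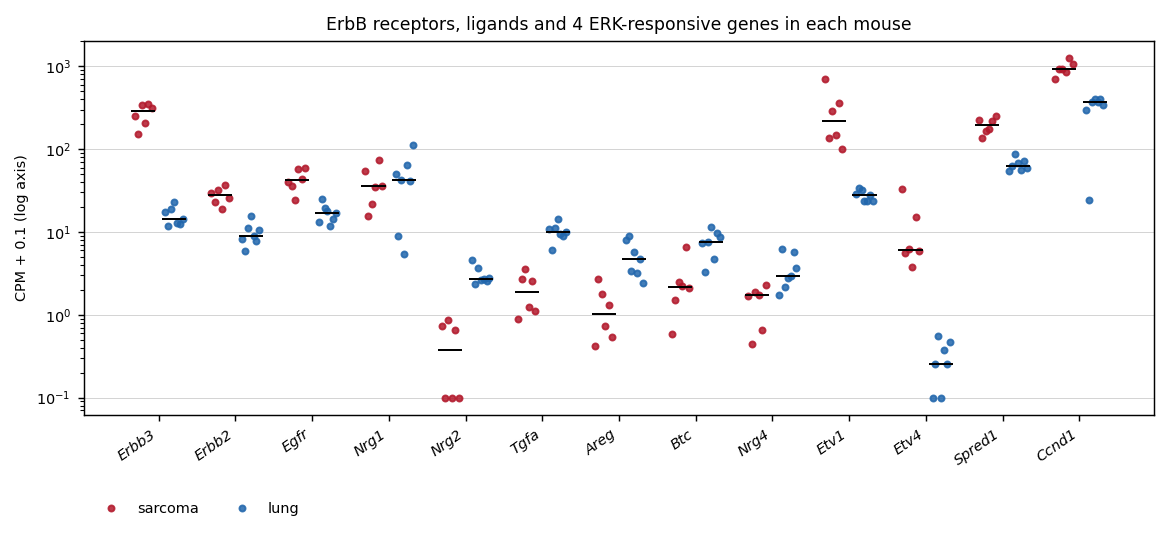
ErbB receptors, their ligands and 4 ERK-responsive genes in each mouse, as CPM plus 0.1 on a log axis (sarcoma red, lung blue, black bars are medians). Erbb3 is higher in every sarcoma than in every lung, Nrg1 ranges from 5.37 to 111 CPM across the lungs, and Ccnd1 has 1 low lung, at 24.1 CPM, that of mouse M00238.

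Genes that respond to ERK signalling were mixed. Of 17 tested, 8 were higher in sarcoma and 1 lower. With the mouse as a block 3 were higher, and without the lung of M00238 3 were lower. Etv1 and Etv4 are ETS transcription factors induced downstream of receptor tyrosine kinases. Etv1 measured 100.1, 219 and 702 CPM in sarcoma and 23.3, 27.5 and 34.1 CPM in lung (3.26 ± 0.39), and Etv4 3.65, 5.98 and 32.5 against 0, 0.152 and 0.448 CPM (5.61 ± 0.71, or 4.94 without the sarcoma of M00235), each without overlap. Etv5, the closest relative of both, which alveolar type 2 cells also express, did not pass (54.8, 74 and 131 against 72.8, 107 and 163 CPM, -0.61 ± 0.24, adjusted p = 0.0532), but passed as lower without the sarcoma of M00235 (adjusted p = 0.0067), without the lung of M00238 (0.024) or M00249 (0.0365) and within the higher mouse series (0.0479). Spred1, a RAS-ERK inhibitor, measured 136, 195 and 248.8 CPM against 54.8, 62.1 and 87.9 CPM (1.41 ± 0.16). Ccnd1, cyclin D1, measured 704, 926 and 1270 CPM in sarcoma and 24.1, 370.4 and 408 CPM in lung, where the lowest was that of M00238 and the next lung had 299.6 CPM (1.44 ± 0.42, adjusted p = 0.0125, and 0.0765 with the mouse as a block). Ier3, a stress-induced survival gene, was the lower one (23.8, 47 and 102 against 102, 181 and 302 CPM, -2.10 ± 0.35).

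Collagen genes were among the largest differences in level. Of 23 tested members of the fibrillar collagens and their processing, 17 were higher in sarcoma and 1 lower, with a median log2 fold change of 2.13. Col1a2 and Col1a1, the chains of type I collagen, measured 2889, 4518 and 11082 and 1915, 3231 and 8397 CPM in sarcoma and 182, 242 and 328 and 69.4, 107 and 251 CPM in lung (4.43 ± 0.31 and 5.09 ± 0.40). Col3a1, the type III chain, measured 1751, 2869 and 9230 CPM against 83.1, 94.9 and 206 CPM (5.21 ± 0.42). Col5a3 and Col5a1, type V chains that start fibrils, had log2 fold changes of 6.34 ± 0.37 and 4.25 ± 0.25. The lowest sarcoma exceeded the highest lung for each of these 5 genes. Of the enzymes, the lysyl oxidase relatives Loxl2 (77.2, 118 and 209 against 11.7, 13 and 16.6 CPM, 3.06 ± 0.21) and Loxl3 (2.63 ± 0.19) were higher, and Plod2, a lysyl hydroxylase, was lower (28.5, 31.2 and 40.5 against 29.2, 49 and 59.8 CPM, -0.62 ± 0.18, adjusted p = 0.0115, and 0.0526 and 0.301 within the lower and higher mouse series).

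The basement membrane list divided. Of 21 tested, 12 were higher and 7 lower in sarcoma. Higher were chains found in vessels, muscle and nerve: Col15a1 (142, 303 and 598 against 2.04, 4.57 and 6.66 CPM, 6.00 ± 0.37), the linkers Nid2 (4.79 ± 0.51, or 5.64 without the lung of M00237) and Nid1 (2.25 ± 0.24), and the laminin chains Lama4 (2.66 ± 0.36) and Lama2, the chain of the Schwann cell and muscle basement membrane (55, 86.2 and 133 against 13.7, 21.7 and 29.4 CPM, 1.97 ± 0.20). Col4a1, the ubiquitous type IV chain, measured 755, 1102 and 1884 CPM in sarcoma and 199.8, 275 and 357 CPM in lung (1.99 ± 0.23). Lower were Lama3 and Lamb3, chains of epithelial laminin, with log2 fold changes of -3.25 ± 0.38 and -3.21 ± 0.61 (-2.54 without the lung of M00238). Lower too were Col4a3, which alveolar type 1 cells lay down (0.301, 2.17 and 2.77 against 2.42, 39.3 and 69.4 CPM, -4.37 ± 0.63, and adjusted p = 0.0935 within the lower mouse series), Col4a5 (-3.04 ± 0.45) and Col4a6 (-3.28 ± 0.45).

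Elastic fibre genes divided into 5 higher and 5 lower of 13 tested. Fbn2, the developmental fibrillin, measured 51.7, 93.4 and 223 CPM in sarcoma and 0.128, 0.455 and 1.65 CPM in lung (7.06 ± 0.53), and Fbln2, a fibulin, 69.4, 135 and 230.1 against 1.21, 4.34 and 7.74 CPM (4.71 ± 0.40). Mfap4, a microfibril protein abundant in lung, went the other way, with 0.159, 1.5 and 5.16 against 12.6, 25.3 and 49.5 CPM (-3.94 ± 0.57, adjusted p = 4.3e-05, and 0.0541 within the lower mouse series). Of 18 matricellular and hyaluronan genes tested, 9 were higher and 4 lower. Sparc, a collagen-binding protein, measured 3320, 6624 and 7851 CPM in sarcoma and 1043, 1218 and 1733 CPM in lung (2.07 ± 0.19), Dcn, the proteoglycan decorin, 1027, 2330 and 2988 against 108, 176 and 363 CPM (3.22 ± 0.28), and Lum, its relative lumican, 101, 266 and 419 against 1.49, 1.92 and 6.96 CPM (6.31 ± 0.43). Thbs2, Tnc and Vcan, matrix proteins of growing and healing tissue, had log2 fold changes of 5.55 ± 0.41, 4.52 ± 0.40 and 4.93 ± 0.71. The hyaluronan link protein gene Hapln1 was hardly detected in lung (7.38, 25.7 and 46.4 against 0, 0 and 0.303 CPM, 7.75 ± 0.61). Spp1, osteopontin, and Ccn1, a YAP and TEAD target, were lower (-3.67 ± 0.66 and -3.39 ± 0.49). Without the lung of M00247 Vcan had 6.09, and without that of M00238 Spp1 had -3.04.

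Of 21 matrix proteases and inhibitors tested, 10 were higher and 6 lower, and 2 lower with the mouse as a block. Mmp14, a membrane-bound collagenase, measured 332, 601 and 791 CPM in sarcoma and 31.3, 54.7 and 72.1 CPM in lung (3.44 ± 0.25), and Mmp2, the gelatinase it activates, 89.6, 352 and 641 against 19.4, 21.1 and 51.8 CPM (3.42 ± 0.36). Adam12, a metalloprotease of growing mesenchyme, measured 28.4, 56.2 and 107 CPM against 0.607, 1.06 and 1.53 CPM (5.55 ± 0.29), and Serpine2, a protease inhibitor, 318, 517 and 771 against 91.8, 119 and 135 CPM (2.03 ± 0.18). The 4 ranges did not overlap those of lung. Plaur, the urokinase receptor, was lower (0.88, 1.88 and 3.13 against 6.98, 10.2 and 13.9 CPM, -2.51 ± 0.34).

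All 20 mitosis genes were higher in sarcoma, with a median log2 fold change of 2.29. Their summed level was 674, 1227 and 2592 CPM in the sarcomas and 92.7, 154 and 647 CPM in the lungs. The highest lung, that of M00247, nearly reached the lowest sarcoma, and the next lung had 180.2 CPM. Cenpf and Cenpe, kinetochore proteins, measured 77.2, 149 and 272 and 47.9, 84.9 and 148 CPM in sarcoma and 3.63, 11.5 and 48.2 and 4.22, 8.65 and 29.5 CPM in lung (3.20 ± 0.49 and 3.02 ± 0.42). Prc1, which bundles the spindle midzone, measured 43.7, 82.6 and 184 CPM against 3.78, 8.22 and 28.3 CPM (2.92 ± 0.42), and Birc5, survivin, 30.6, 76.8 and 168 against 4.47, 7.36 and 34.8 CPM (2.58 ± 0.45). Mki67, the proliferation marker, measured 100.3, 155 and 309 CPM against 8.63, 15.1 and 105 CPM, where only the lung of M00247 reached the sarcoma range (2.48 ± 0.52, adjusted p = 0.0011). Without that lung Mki67 had 3.26 and Cenpf 3.81.

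Many mitosis genes carry in their promoters CCAAT boxes and a cell cycle homology region. Through the latter the DREAM complex silences them in resting cells. Of the 20 genes, 17 matched a RefSeq promoter (GRCm38.p6, 250 bases before to 50 after the start), and Ccna2, Aurkb and Tpx2 did not. The letters TTTGAA or TTCGAA, on either strand, were found in 14 of the 17 and in 19.4% of all 27025 promoters. CCAAT, on either strand, was found in 16 of the 17 and in 37.9% of all promoters. A match of letters is a description and shows no binding. Below, 30-base windows are shown for the 6 genes with TTTGAA or its reverse complement TTCAAA within 30 bases before the start, to show where the element sits; the element is in capitals and sequences run 5′ to 3′ on the gene's strand.
Cdc20: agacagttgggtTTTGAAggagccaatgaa
Cdk1: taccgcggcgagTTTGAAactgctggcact
Prc1: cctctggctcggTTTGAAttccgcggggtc
Kif11: tcgtctccatttTTCAAAattgaggcgcgg
Top2a: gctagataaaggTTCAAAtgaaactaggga
Ube2c: ggagggttgcaaTTCAAAcgcgggcggcgg
The windows lie at chr4:118437344-118437373 (minus strand, Cdc20), chr10:69352910-69352939 (minus, Cdk1), chr7:80294434-80294463 (plus, Prc1), chr19:37376351-37376380 (plus, Kif11), chr11:99024195-99024224 (minus, Top2a) and chr2:164769888-164769917 (plus, Ube2c). The first base of the element lies 18, 15, 5, 19, 23 and 29 bases before the start, in that order. In Cdc20 a CCAAT box, in lower case, follows the element in the same window. The levels of these genes were 10, 25.7 and 68.1 CPM in sarcoma and 3.59, 4.93 and 13.8 CPM in lung for Cdc20 (1.92 ± 0.42), which activates the anaphase-promoting complex. Cdk1, the mitotic kinase, measured 14.1, 52 and 111 CPM against 2.16, 4.55 and 27.7 CPM (2.59 ± 0.58), and Kif11, the spindle kinesin, 9.55, 18.2 and 51.3 against 1.15, 2.34 and 14.2 CPM (2.32 ± 0.55). Top2a, the topoisomerase that separates chromosomes, measured 155, 333 and 684 CPM against 17.9, 29 and 183 CPM (2.68 ± 0.54), and Ube2c, a ubiquitin-conjugating enzyme of the same complex as Cdc20, 20.4, 34.9 and 87 against 3.32, 7.43 and 31.5 CPM (1.99 ± 0.49). For all 5, the highest lung value, that of M00247, lay within the sarcoma range, and without that lung Cdk1, Kif11 and Top2a had log2 fold changes of 3.36, 3.09 and 3.53.

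DNA replication genes had smaller fold changes. Of 20 tested, 10 were higher and 0 lower, with a median log2 fold change of 1.12. Cdc6, which loads the replicative helicase, measured 4.3, 9.47 and 23 CPM in sarcoma and 0.908, 1.66 and 6.77 CPM in lung (1.80 ± 0.49), and Rrm1, the large subunit of ribonucleotide reductase, 32, 54.6 and 103 against 15.2, 20.3 and 42 CPM (1.19 ± 0.26). Pcna, the sliding clamp of DNA polymerase, did not pass (35.7, 66.1 and 137 against 25.5, 35.8 and 135 CPM, 0.35 ± 0.37, adjusted p = 0.483), but passed as higher without the lung of M00238 (0.78, adjusted p = 0.0338) and within the higher mouse series (0.0363).

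Of 14 genes of Polycomb repressive complex PRC2 and chromatin tested, 6 were higher and 0 lower. Ezh2, the catalytic subunit of PRC2, measured 104, 164 and 203 CPM in sarcoma and 9.39, 26.2 and 52.9 CPM in lung (2.30 ± 0.31), while its other core members Suz12 (0.33 ± 0.27) and Eed (-0.26 ± 0.19) did not pass. Dnmt3a and Dnmt1, DNA methyltransferases, had log2 fold changes of 1.36 ± 0.20 and 1.03 ± 0.20. Genes of p53 and cell cycle arrest were mixed, 5 higher and 5 lower of 17 tested, and 2 lower with the mouse as a block. Cdkn2a, whose transcripts encode the cell cycle inhibitors INK4A and ARF, measured 7.38, 35.7 and 73.7 CPM in sarcoma and 1.4, 2.46 and 4.55 CPM in lung (3.54 ± 0.53). Nf1, the RAS inhibitor neurofibromin, measured 71.2, 109.6 and 152 CPM against 10.3, 31.8 and 39.2 CPM (1.72 ± 0.26). Phlda3, a p53 target, was higher (1.12 ± 0.20), and Pmaip1, which encodes the pro-apoptotic NOXA, was lower (0.629, 1.75 and 2.44 against 6.39, 10 and 45 CPM, -3.22 ± 0.52). Cdkn1a, the p53 target p21, did not pass (75.2, 147 and 270.4 against 12.6, 105 and 206 CPM, 0.42 ± 0.47).

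The genes of alveolar and airway epithelium were lower in sarcoma with hardly an exception. Of the type 2 list, 14 of 15 tested were lower and none higher, with a median log2 fold change of -7.76, the exception being Etv5, described above. The surfactant proteins Sftpb, Sftpa1 and Sftpd measured 2.26, 3.18 and 4.67, 2.46, 3.81 and 7.38 and 0.29, 0.678 and 1.19 CPM in sarcoma and 945, 1754 and 3889, 1827, 2080 and 4826 and 384, 484 and 731 CPM in lung (-9.30 ± 0.40, -9.46 ± 0.42 and -9.68 ± 0.35). Cldn18, a claudin of alveolar epithelium, had the smallest p of all genes tested, with 0.87, 1.48 and 2.11 CPM in sarcoma and 623, 743 and 1134 CPM in lung (-9.23 ± 0.26, adjusted p = 9.3e-12). Lamp3, a protein of lamellar bodies, was near 0 in sarcoma (0, 0.0724 and 1.04 against 109, 189 and 312 CPM, -9.85 ± 0.63, or -10.98 without the sarcoma of M00236).

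All 13 type 1 genes tested were lower, with a median of -4.24. Ager, the receptor RAGE, measured 3.48, 4.57 and 9.39 CPM in sarcoma and 749, 1027 and 1981 CPM in lung (-7.97 ± 0.38), and Clic5, a chloride channel protein, 1.88, 5.77 and 10.4 against 384, 474 and 983 CPM (-6.52 ± 0.48). Rtkn2, another type 1 cell gene, had a log2 fold change of -5.01 ± 0.28. Emp2 and Pdpn, type 1 genes that fibroblasts and other cells also express, kept clear levels in sarcoma, 106, 149 and 195 and 20.4, 31.4 and 44.5 CPM, against 673, 900.3 and 1312 and 159, 194 and 243 CPM in lung (-2.73 ± 0.21 and -2.79 ± 0.27).

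All 12 airway genes tested were lower, with a median of -7.98. Cyp2f2, a cytochrome P450 of club cells, measured 6.05, 8.96 and 11.3 CPM in sarcoma and 722, 2257 and 4436 CPM in lung (-8.34 ± 0.46), and Scgb3a2, another secretoglobin, 0.159, 0.754 and 1.74 against 104, 556 and 874 CPM (-9.36 ± 0.61). Dynlrb2, a dynein light chain of cilia, had a log2 fold change of -8.85 ± 0.59. Ccdc153, a ciliary gene, had 3 counts in all sarcomas against 17.5, 51.6 and 119 CPM in lung, a ratio of 854.75 in favour of lung with a counting interval of 292.19 to 4147.

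Transcription factors that pattern the lung were all lower, 21 of 21 tested, with a median of -3.70. Nkx2-1, the master regulator of lung epithelium, measured 0, 0.135 and 0.276 CPM in sarcoma and 32.6, 59.8 and 91 CPM in lung (-8.76 ± 0.41). Foxa2 and Foxa1, endodermal pioneer factors, had log2 fold changes of -7.24 ± 0.45 and -7.85 ± 0.70. Without the sarcoma of M00245, the only one with counts of Foxa1, the fitted value of that gene was -10.75, which is then no bound. Tbx5, a factor of lung mesenchyme, measured 0, 0.528 and 0.919 CPM against 33, 52.6 and 91.6 CPM (-7.08 ± 0.49), and Sox17, of endothelium and airway, 2.46, 3.71 and 10.5 against 40.7, 54 and 87.7 CPM (-3.70 ± 0.33). Gata5 had 0 counts in all sarcomas and was at least 69.805-fold lower, with 3 counts over the group as the floor.

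Genes of epithelial junctions and simple keratins were lower too, 12 of 15 tested and none higher. Krt7, Krt19 and Krt8, keratins of simple epithelium, measured 0.434, 0.992 and 2.11, 0, 0.0796 and 0.629 and 0.251, 1.3 and 3.4 CPM in sarcoma and 129, 164 and 275, 31.6, 67.4 and 139 and 55.8, 79.5 and 179 CPM in lung (-7.54 ± 0.38, -8.48 ± 0.59 and -6.11 ± 0.48, with -9.13 for Krt19 without the sarcoma of M00238). Cldn3, a tight junction claudin, had a log2 fold change of -7.32 ± 0.47. Cdh1, E-cadherin, kept a level of 11.8, 40.7 and 84.2 CPM in sarcoma against 202, 298 and 436 CPM in lung (-3.00 ± 0.43). Members that did not pass included Cldn4 (0.46 ± 0.69) and Esrp1 (-0.47 ± 0.55), which squamous epithelium also expresses, and keratinocyte genes were higher in the same tumours, as described below. What part the keratinocyte RNA had in these values was not tested.

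Of the alveolar fibroblast list, 13 of 16 tested were lower and none higher, with a median of -3.03. Npnt, the matrix protein nephronectin, measured 1.88, 4.41 and 7.29 CPM in sarcoma and 266, 357 and 462 CPM in lung (-6.53 ± 0.34), Inmt, a methyltransferase, 8.58, 13 and 25.9 against 1063, 1773 and 3480 CPM (-7.10 ± 0.37), and Limch1, an actomyosin regulator, 161, 184 and 248.3 against 564, 796 and 1038 CPM (-2.19 ± 0.18). Vegfd and Fgfr4 had log2 fold changes of -4.01 ± 0.40 and -4.92 ± 0.54. Of the adventitial and universal fibroblast genes, 9 were higher and 5 lower of 18 tested, and 3 lower with the mouse as a block. Lum and Dcn, given above, were among the higher ones, as were Serpinf1, which encodes the secreted protein PEDF (44.2, 58.1 and 128 against 1.62, 6.22 and 7.28 CPM, 3.58 ± 0.34), and Fap, a marker of activated fibroblasts (13.9, 23.7 and 58.3 against 0.135, 1.28 and 1.94 CPM, 4.65 ± 0.53). The lower ones included Ly6a, a marker of universal fibroblasts that endothelium also expresses (16.4, 36.2 and 57.8 against 215, 369 and 579 CPM, -3.60 ± 0.35), Dpp4 (-3.91 ± 0.40) and Pdgfra, the PDGF receptor of most fibroblasts (22.7, 45.3 and 76.4 against 76.5, 99.1 and 272 CPM, -1.65 ± 0.33).

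All 19 genes common to vessel endothelium were lower in sarcoma, with a median log2 fold change of -3.80 and summed levels of 197, 283 and 496 CPM in the sarcomas against 2545, 2821 and 3962 CPM in the lungs. Kdr, the VEGF receptor VEGFR2, measured 17.1, 22.5 and 34.7 CPM in sarcoma and 304, 382 and 501 CPM in lung (-4.17 ± 0.21), Flt1, the receptor VEGFR1, 11, 25.2 and 38.2 against 272, 322 and 390 CPM (-3.80 ± 0.30), and Tek, the angiopoietin receptor TIE2, 1.91, 2.89 and 5.03 against 63.1, 70.7 and 107 CPM (-4.74 ± 0.23). Plvap, which forms the diaphragms of endothelial fenestrae, measured 26.6, 33.3 and 38.4 CPM against 131, 183 and 347 CPM (-2.75 ± 0.23), and Tie1 had a log2 fold change of -3.84 ± 0.32. Of the endothelial genes that lung capillaries hold in particular, 16 of 22 tested were lower and none higher. Calcrl, the receptor of adrenomedullin, measured 7.31, 10.9 and 15.6 CPM in sarcoma and 486, 720.2 and 1657 CPM in lung (-6.46 ± 0.33), and Hpgd, which degrades prostaglandins, 3.5, 5.59 and 8.88 against 215, 318 and 648 CPM (-6.09 ± 0.32). Tmem100, Icam2 and Cyp4b1 had log2 fold changes of -6.14 ± 0.35, -5.15 ± 0.34 and -5.36 ± 0.38.

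Of 15 genes of sprouting tip cells and vessel growth, 3 were higher and 7 lower. The higher ones were Nid2 and Lama4, counted above among basement membrane genes, and Unc5b, a netrin receptor (24.9, 51.1 and 69.2 against 12.3, 21.4 and 38.8 CPM, 0.91 ± 0.26). Angpt2, which sprouting endothelium releases, did not pass (15.1, 26.7 and 89.8 against 6.64, 13.4 and 47.2 CPM, 1.06 ± 0.49, adjusted p = 0.097), but passed without the lung of M00238 (1.54, adjusted p = 0.0086). Vegfa, the main vessel growth factor, which alveolar type 1 cells produce in quantity, measured 11.4, 22.6 and 47 CPM in sarcoma and 315, 347 and 1129 CPM in lung (-4.20 ± 0.42). Its highest lung was that of M00238. Flt4 and Vegfc, receptor and ligand of lymphatic growth, had log2 fold changes of -4.22 ± 0.37 and -3.24 ± 0.42.

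Among 16 smooth muscle and pericyte genes tested, 2 were higher and 9 lower. Mylk, Cnn1 and Myh11, of the contractile apparatus, measured 46, 66.8 and 100.3, 0.903, 1.06 and 2.14 and 5.36, 9.47 and 14.6 CPM in sarcoma and 313, 431 and 612, 10.8, 18 and 49.1 and 49.7, 82.5 and 165 CPM in lung (-2.75 ± 0.23, -4.23 ± 0.43 and -3.34 ± 0.39). Against the list stood Cspg4, the proteoglycan NG2 of pericytes and of glial precursors (152, 342 and 880.1 against 6.81, 19.8 and 32.3 CPM, 4.07 ± 0.45), and Rgs5, a G-protein regulator of pericytes (61.7, 97.8 and 243 against 7.61, 9.58 and 18.1 CPM, 3.15 ± 0.35). Neither overlapped between the groups.

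Macrophage genes were split. Of 17 tested, 7 were higher and 3 lower in sarcoma. C1qa, a chain of complement C1q made by tissue macrophages, measured 65.6, 87 and 233 CPM in sarcoma and 19.2, 29.5 and 39.9 CPM in lung (1.81 ± 0.28), and Apoe, an apolipoprotein of macrophages and glia, 1011, 1484 and 1861 against 207, 436 and 807 CPM (1.46 ± 0.26). Lyz2, a lysozyme of macrophages and of alveolar type 2 cells, went the other way (95.9, 309 and 637 against 1942, 3556 and 8967 CPM, -3.74 ± 0.43), as did Mpeg1, a pore-forming protein (14.8, 23.5 and 36.6 against 47.4, 63.7 and 163 CPM, -2.01 ± 0.30). Csf1r, the receptor of macrophage growth factor, measured 36.7, 75.9 and 170 CPM in sarcoma against 75, 97.5 and 213 CPM in lung and did not pass (-0.55 ± 0.29), though it did as lower without the sarcoma of M00248 (adjusted p = 0.0381). Of 16 alveolar macrophage genes, 10 were lower and 2 higher. Chil3, a chitinase-like protein, measured 0.377, 0.993 and 2.11 CPM against 61.9, 258 and 686 CPM (-8.23 ± 0.67), and Marco, a scavenger receptor, 0, 0.148 and 0.318 against 9.23, 13.3 and 50.3 CPM (-7.08 ± 0.59). Ear1, a ribonuclease, had 3 counts in all sarcomas against 17.7, 33.4 and 236.9 CPM in lung, a ratio of 839.69 in favour of lung with a counting interval of 287.04 to 4074. Near-identical copies of it exist, so its counts are uncertain. Itgax, the integrin CD11c, had a log2 fold change of -3.45 ± 0.36. The higher ones were Mrc1, the mannose receptor, which is in both macrophage lists (0.74 ± 0.25, with the call lost without the sarcoma of M00238 or that of M00248), and Krt79, a keratin that skin also expresses (2.62 ± 0.57).

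All 19 genes of MHC and antigen processing tested were lower in sarcoma, with a median of -1.86. H2-K1, an MHC class I heavy chain, measured 183, 290.1 and 375 CPM in sarcoma and 612, 1099 and 1249 CPM in lung (-1.91 ± 0.22), and B2m, the class I light chain, 585, 811 and 1049 against 1695, 2423 and 4176 CPM (-1.86 ± 0.25). H2-Eb1 and H2-Ab1, class II chains, measured 34.5, 99.9 and 178 and 36.9, 119 and 168 CPM against 208, 398 and 831 and 205, 299.7 and 384 CPM (-2.27 ± 0.35 and -1.62 ± 0.28). H2-Ob, which tempers peptide loading of class II in B cells, had the lowest value of the list (-4.73 ± 0.32), and the transactivator Ciita measured 1.75, 6.9 and 15.4 CPM against 5.9, 39 and 53.3 CPM (-2.51 ± 0.47). H2 genes share sequence, so counts of single members are uncertain.

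Lymphocyte genes were sparse in sarcoma. Of T and NK cell genes, 17 of 20 tested were lower and none higher, and the list summed to 23.4, 42.4 and 64.4 CPM in sarcoma and 98.5, 229 and 300.1 CPM in lung. Ccl5, a chemokine of T and NK cells, measured 0.478, 3.27 and 5.65 CPM in sarcoma and 17.5, 51.7 and 90 CPM in lung (-4.19 ± 0.45). Cd8a measured 0, 0.155 and 0.579 CPM against 2.43, 4.19 and 7.42 CPM (-4.49 ± 0.54), and Nkg7, of cytotoxic granules, 0.318, 1.82 and 2.51 against 6.26, 13.3 and 19.5 CPM (-3.30 ± 0.43). Of B cell genes, 14 of 15 were lower. Cd79a and Pax5, a signal chain of the B cell receptor and a transcription factor of B cells, measured 0.126, 0.475 and 1.45 and 0.126, 0.358 and 1.3 CPM in sarcoma and 12.2, 24.7 and 92.8 and 15.9, 31.6 and 107 CPM in lung (-5.88 ± 0.63 and -6.49 ± 0.61, the latter -7.08 without the sarcoma of M00248).

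Of neutrophil and monocyte genes, 13 of 15 tested were lower. S100a9, a subunit of calprotectin, measured 3.62, 4.87 and 29.2 CPM in sarcoma and 77.3, 283 and 2945 CPM in lung (-5.99 ± 1.07), and Il1b, interleukin 1 beta, 0, 1.9 and 9.4 against 16, 31.1 and 172 CPM (-4.48 ± 0.88). Without the sarcoma of M00236 the log2 fold changes were -6.94 and -5.38, and without the lung of M00247 that of S100a9 was -4.58. The list summed to 26.4, 80.2 and 164 CPM in the sarcomas and 276, 738 and 8220 CPM in the lungs, where the highest was that of M00247 and the next lung had 1054 CPM. Of 15 interferon-stimulated genes, 7 were lower and 1 higher. Within the lower mouse series 0 were lower (3 at an unadjusted p below 0.05). The higher one was Ifit2, an antiviral RNA-binding protein (13.6, 26.4 and 40.5 against 4.09, 10.8 and 14.7 CPM, 1.11 ± 0.28), and among the lower ones was its neighbour Ifit3 (13.8, 20.7 and 33.1 against 30.8, 41.3 and 84.8 CPM, -1.11 ± 0.27).

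Haemoglobin genes were far lower in sarcoma, and all 7 erythroid genes tested passed (4 with the mouse as a block). Hbb-bs and Hba-a2 measured 157, 401 and 614 and 170.3, 626 and 706 CPM in sarcoma and 4303, 7769 and 28141 and 4675, 9887 and 25765 CPM in lung (-5.19 ± 0.57 and -4.54 ± 0.53). Hba-a1, a near-identical copy of Hba-a2, measured 156, 553 and 819 CPM in sarcoma and 338, 10418 and 25545 CPM in lung, with M00238 lowest, and how counts were divided between the copies is uncertain. Its adjusted p was 0.00015, and 0.0834 with the mouse as a block. Alas2, which makes haem in red cell precursors, measured 2.46, 4.78 and 8.01 CPM against 45.1, 80.4 and 227 CPM (-4.39 ± 0.47). Leaving out haemoglobin, immunoglobulin and mitochondrial genes before scaling changed the number of genes that passed from 6520 to 6559.

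Markers of other cell types were present in the sarcomas. Of 18 keratinocyte and oral epithelium genes tested, 15 were higher than in lung and 0 lower, and the list summed to 599, 2089 and 9172 CPM in the sarcomas against 126, 164 and 197 CPM in the lungs. Krt14 and Krt5, the keratins of basal keratinocytes, measured 54.1, 265 and 936 and 72.4, 312 and 779 CPM in sarcoma and 0.91, 2.3 and 4.43 and 0.541, 1.97 and 6.65 CPM in lung (6.95 ± 0.70 and 6.98 ± 0.73). Krt1, Krtdap and Lor, of the differentiating and cornified layers, had log2 fold changes of 8.38 ± 0.86, 6.65 ± 0.66 (6.06 without the sarcoma of M00237) and 5.40 ± 0.63. Krt13, a keratin of oral and oesophageal epithelium, did not pass (20.2, 30.3 and 60.4 CPM in sarcoma, 12.3, 19.6 and 46 CPM in lung), but passed as higher without the lung of M00238 (adjusted p = 0.0384). Dsg3, Ivl, Sprr1b and Sprr3, also listed, did not pass the filter, at no more than 21.7, 32.7, 36.7 and 2.48 CPM in any sarcoma. The filter keeps genes with counts in enough samples, so the presence of the tested members in the sarcomas was partly fixed by it. What part the keratinocyte genes had in the differences of other genes was not tested.

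Skeletal muscle fibre genes were higher in 11 of 14 tested members and lower in 1. Within the lower mouse series 0 passed as higher (of 18 tested there, 10 at an unadjusted p below 0.05), and within the higher series 14 did. Their sum was 80.4, 813 and 5963 CPM in the sarcomas and 37.9, 72.8 and 115 CPM in the lungs. Acta1, skeletal alpha-actin, measured 20.2, 176 and 1265 CPM in sarcoma, highest in M00238, and 3.58, 5.14 and 15.6 CPM in lung (5.33 ± 0.84, adjusted p = 9.6e-05, and 0.102 within the lower mouse series). Without the sarcoma of M00238 it had 4.09. In the 2 sarcoma libraries of mouse M00245 it measured 496.8 and 4.47 CPM. Myh1, a fast myosin, measured 4.78, 68.8 and 630.4 CPM in sarcoma and 0.381, 0.758 and 2.99 CPM in lung (6.90 ± 1.07, or 5.50 without the sarcoma of M00238, and adjusted p = 0.0854 within the lower mouse series). Myh7, the myosin of slow fibres and of the heart, was the lower one (0, 0.0629 and 0.184 against 2.17, 4.44 and 5.98 CPM, -5.56 ± 0.53).

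Of 5 neuron genes tested, 2 were higher and 2 lower. Tubb3, a tubulin of neurons and of neural crest derivatives, measured 28.4, 42.7 and 128 CPM in sarcoma and 0.383, 1.67 and 2.3 CPM in lung (4.94 ± 0.41), and Syp, synaptophysin, had a log2 fold change of 1.03 ± 0.37, a call that was lost without any 1 of 7 mice (sarcoma M00235, M00236, M00238 or M00245, lung M00246, M00247 or M00248). Stmn2, a neuronal tubulin regulator, measured 0.478, 2.25 and 9.79 CPM against 60.3, 75.1 and 263 CPM (-5.08 ± 0.57, or -5.70 without the sarcoma of M00237), and Rbfox3, the nuclear antigen NeuN, had a log2 fold change of -3.47 ± 0.56. Of 10 hepatocyte genes tested 0 passed, by edgeR or by DESeq2, with 0 at an unadjusted p below 0.05, while 5 were higher without the lung of M00238. Of 9 adipocyte genes 2 were lower, near the share of 23.8% over all genes tested. They were Lpl (-1.43 ± 0.44) and Pparg (-2.68 ± 0.59, or -1.98 without the lung of M00238).

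**Figure D4:**
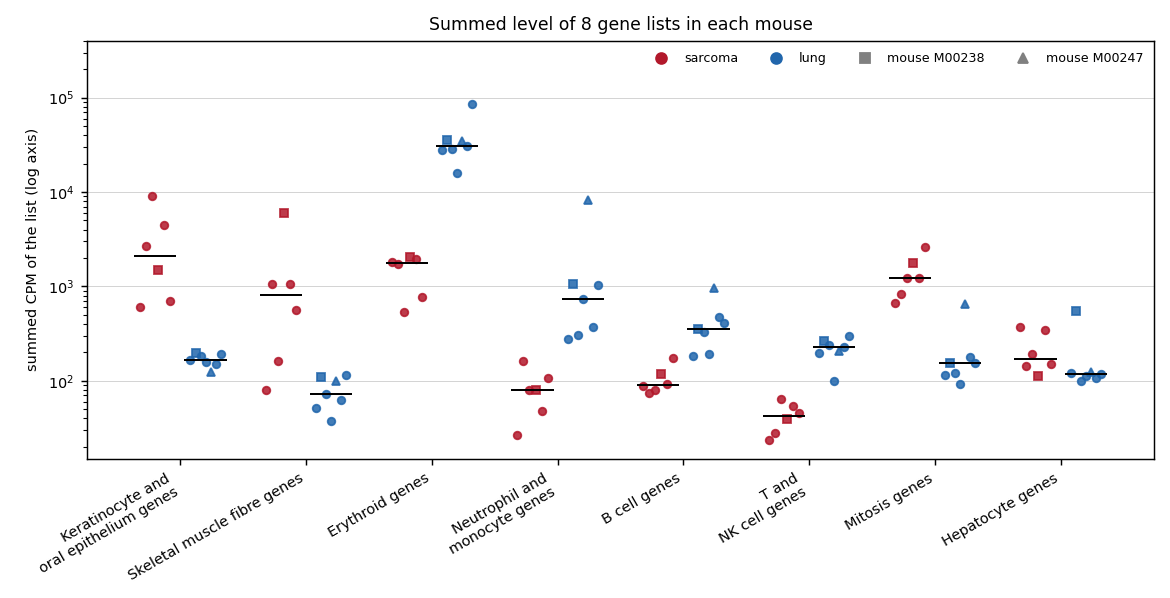
Summed CPM of 8 gene lists in each mouse on a log axis (sarcoma red, lung blue, black bars are medians; squares mark mouse M00238 and triangles mouse M00247). Keratinocyte genes range from 599.3 to 9172 CPM in the sarcomas and lie below 200 CPM in every lung, and the lung of M00247 is the highest for neutrophil, B cell and mitosis genes.

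Insulin-like growth factor genes went both ways. Of 14 tested, 3 were higher and 6 lower in sarcoma, against 18.1% and 23.8% of all genes tested. Igf1 measured 117, 225 and 688 CPM in sarcoma and 9.27, 19.2 and 37.2 CPM in lung (3.62 ± 0.45), without overlap. Igf2, its embryonic relative, was low in both (0.87, 3.11 and 4.49 against 1.21, 16.4 and 17.2 CPM, -2.37 ± 0.52). The binding protein genes Igfbp2 and Igfbp5, which limit access to the receptor, were lower (-4.24 ± 0.45 and -1.41 ± 0.21), while Igfbp3 was higher (2.24 ± 0.46). Igf1r, the receptor, did not pass (93.8, 125 and 164 against 60.7, 198 and 275 CPM, -0.69 ± 0.27, adjusted p = 0.0548), but passed as lower without the lung of M00238 (adjusted p = 0.0004) and within the higher mouse series (0.0113). Of 12 imprinted genes tested, 6 were higher and 3 lower, or 1 lower with the mouse as a block. The imprinted list summed to 444.9, 600.7 and 1016 CPM in the sarcomas and 313.9, 357.5 and 4198 CPM in the lungs. The insulin-like growth factor list summed to 1059, 2064 and 3566 against 1017, 1325 and 4259 CPM. In both lists the highest lung, that of M00238, exceeded every sarcoma. Mest, Peg3 and Grb10 measured 23.3, 42.1 and 88.1, 31.5, 49.6 and 59.9 and 76.6, 126 and 199 CPM in sarcoma and 1.35, 2.28 and 7.87, 3.33, 7.79 and 9.57 and 21.8, 26.6 and 43.8 CPM in lung (3.85 ± 0.44, 2.51 ± 0.24 and 2.09 ± 0.18). Plagl1, a zinc finger regulator of other imprinted genes, went the other way (2.78, 5.96 and 11.9 against 18.1, 24.8 and 39.3 CPM, -2.28 ± 0.29).

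Of 19 Wnt pathway genes tested, 3 were higher and 9 lower. The feedback inhibitors Nkd2 and Nkd1 moved in opposite directions: Nkd2 measured 271, 349 and 443 CPM in sarcoma and 29.5, 37.1 and 107 CPM in lung (2.65 ± 0.27), and Nkd1 2.09, 3.83 and 6.41 against 80.3, 119 and 172 CPM (-5.08 ± 0.27). Both separated the groups. Wnt2, a ligand of lung mesenchyme, and Rspo1, a Wnt agonist, were lower (-5.15 ± 0.58 and -5.39 ± 0.71, the latter -6.81 without the sarcoma of M00237), and Wnt7a had 0 counts in all sarcomas and was at least 76.757-fold lower, with 3 counts over the group as the floor.

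Hox genes, which keep a record of position along the body, were 7 higher and 4 lower of 14 tested, and 14 were higher without the sarcoma of M00237, when more members could be tested. Hoxd8 measured 7.68, 13.1 and 23.6 CPM in sarcoma and 0, 0.383 and 0.758 CPM in lung (4.83 ± 0.47), and Hoxc6 0.903, 34.6 and 44.9 against 0, 0.381 and 1.52 CPM (5.74 ± 0.81). That sarcoma had 0.903 CPM of Hoxc6 and the next lowest sarcoma 27.2 CPM. Hoxa5, which patterns the lung, went the other way (0.151, 6.94 and 11.8 against 81.5, 116 and 231 CPM, -4.39 ± 0.55). Glycolysis and hypoxia genes mostly did not pass: 2 were higher and 3 lower of 20 tested, and 4 were higher without the lung of M00238. Egln3, an oxygen-sensing hydroxylase, was higher (8.25, 17.6 and 47.6 against 0.908, 1.72 and 3.79 CPM, 3.36 ± 0.49).

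To see which of these differences depend on lung as the reference, sarcoma, lung and the 6 muscle samples of the series were fitted together. The muscles came from M00237, M00238, M00245, M00246, M00248 and M00249, each of which also gave lung. The fit had no term for the mouse, and none was tried for it. Muscle holds fibres and, in these samples, keratinocyte genes, while both lists were low in lung. The contrasts with lung and with muscle share the sarcomas, so whether they differ was tested as lung against muscle, in which 9345 of 16586 genes (56.3%) passed. Col1a2 measured 150.1, 179 and 208 CPM in muscle, and its log2 fold change over muscle was 4.01 ± 0.29. Lung and muscle did not differ beyond the threshold in it (-0.44 ± 0.25, adjusted p = 0.147), nor in Cspg4 (3.61 ± 0.40 over muscle), C1qa (1.56 ± 0.32) or Mki67 (2.22 ± 0.48). Of the lists, 20 of 20 mitosis genes were higher than in lung and 19 than in muscle, and of 23 fibrillar collagen genes 17 were higher than in lung and 20 than in muscle. How many of all genes differed between sarcoma and muscle was not counted, so counts against muscle, here and below, have no such share beside them.

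Sox10 and Erbb3 were higher in sarcoma than in either tissue, by less over muscle. Sox10 measured 4.88, 6.07 and 8.4 CPM in muscle, a log2 fold change of 5.60 ± 0.32 for sarcoma over muscle, and lung was below muscle by a log2 value of -3.37 ± 0.30 (adjusted p = 1e-08). Erbb3 had a log2 fold change of 2.97 ± 0.19 over muscle, and -0.97 ± 0.17 for lung over muscle (adjusted p = 6.9e-05). Erbb2 (0.07 ± 0.21) and Egfr (-0.34 ± 0.20) did not differ from muscle past the threshold, and lung lay below muscle in both (-1.29 ± 0.21 and -1.59 ± 0.20, adjusted p = 1.8e-05 and 7.7e-07). Nrg1 passed neither between sarcoma and muscle (-0.45 ± 0.61) nor between lung and muscle (-0.04 ± 0.59, adjusted p = 0.961).

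Most antigen presentation genes changed direction with the reference. All 19 MHC and antigen processing genes were lower than in lung, with a median log2 fold change of -1.85 in the fit of 3 groups. Against muscle 14 were higher and 1 lower, with a median of 1.11. How many of all genes differed from muscle was not counted. H2-Ab1 measured 18.1, 20.6 and 30.3 CPM in muscle, with a log2 fold change of 1.22 ± 0.25 for sarcoma over muscle, while lung exceeded muscle by 2.82 ± 0.26 (adjusted p = 1.4e-08). Cd74 likewise had 1.11 ± 0.40 over muscle, and H2-K1 0.95 ± 0.23. Endothelial genes were lower than in lung in 19 of 19, and against muscle 12 of 19 were lower and 1 higher. Kdr measured 27.2, 38.8 and 62.3 CPM in muscle (-1.81 ± 0.22 over muscle) and Flt1 had -2.57 ± 0.29. Of 17 macrophage genes, 7 were higher and 3 lower than in lung, and 13 were higher and 1 lower than in muscle. The keratinocyte list was higher than in lung in 19 of 22 genes and lower than in muscle in 18, and the muscle fibre list higher than in lung in 15 of 18 and lower than in muscle in 15. Krt14 measured 272, 496 and 1617 CPM in muscle and Acta1 3084, 5130 and 6184 CPM. The fit of 3 groups tested more members of some lists than the fit of sarcoma and lung alone.

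**Figure D5:**
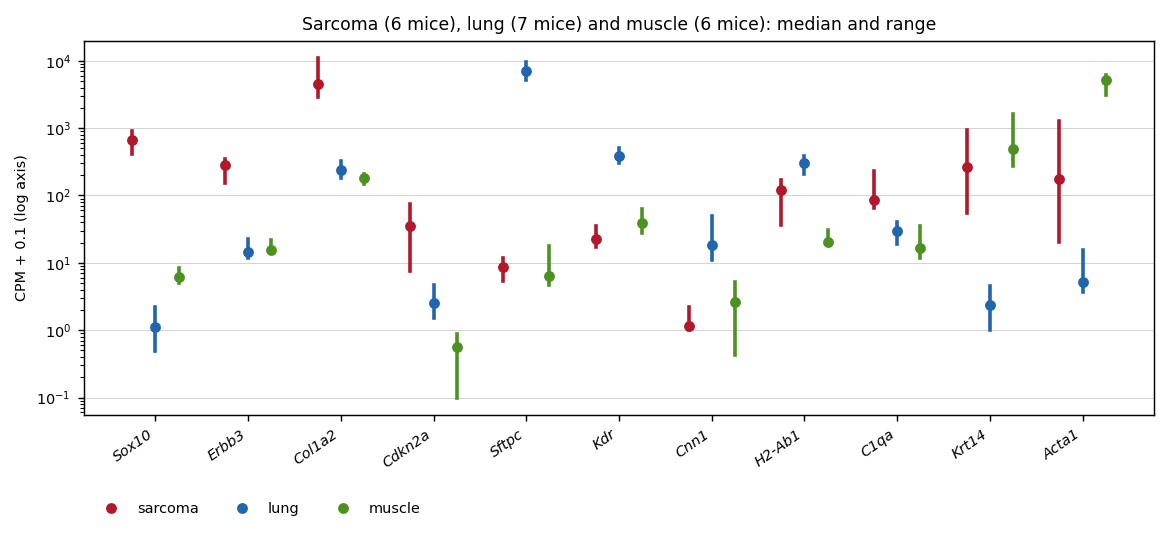
Median (points) and range (bars) of 11 genes in sarcoma (red, 6 mice), lung (blue, 7 mice) and muscle (green, 6 mice), as CPM plus 0.1 on a log axis. H2-Ab1 in sarcoma lies between lung and muscle, Kdr in sarcoma lies below lung with its median below that of muscle, and Krt14 and Acta1 in sarcoma lie between lung and muscle by their medians.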

How the data were processed

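RNA was measured by 3′ end sequencing (QuantSeq) of frozen tissue sections, per the labels' protocols. The values are expected counts per gene as deposited by the authors in a table of all tissue libraries: 8.35% of its values are not whole numbers. The aligner, the counting tool and the genome build are not named in the labels or file headers. Counts were rounded, which moved the total by 0.00054%, and the libraries of M00245 were summed.

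Genes were kept by filterByExpr (minimum count 10), scaled by TMM and tested with edgeR 4.0.16 (quasi-likelihood F test, R 4.3.3) with Benjamini-Hochberg adjustment over all genes tested and a threshold of 0.05. Adjusted p-values in the text come from this fit or its alternatives. Standard errors were derived from its test, as the absolute log2 fold change divided by the square root of the F statistic. The fit was also run on simulated counts with few genes changed, by small folds, as many up as down. That setting does not cover differences as broad as those between sarcoma and lung, and no result here rests on it. A second fit added muscle. Alternatives were RLE scaling, DESeq2 1.42.0, other filters, leaving out each mouse, the mouse as a block, each M00245 library alone, the mouse series, a shared spread and removal of haemoglobin, immunoglobulin and mitochondrial genes. The 4 mice without a block, and the omission of 2 lungs together, were added after seeing the data. The design foresaw whole counts, and the test was kept on the rounded values. The pairing comes from the labels, which tie both tissues to 1 mouse: in M00237, M00238, M00245 and M00248 the deviations of sarcoma and lung from their group means correlated across genes at 0.196, -0.053, -0.030 and -0.053.

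Levels are CPM per mouse, and 3 counts are the floor for detection. Floors and counting intervals cover counting error only. Overlap of groups was judged on TMM-scaled CPM. Always named were Cd74, Nrg1, the ErbB receptors, Sox10, Col20a1 and Sftpc, then the 14 highest and 14 lowest fold changes with at least 20 CPM and no overlap, the 6 largest differences in level each way, and up to 5 members of each list by adjusted p. Gene models with only a number, clones, pseudogenes, mitochondrial and antigen receptor genes were passed over. Other members named were chosen after their values were seen. The comparison and the 42 gene lists were chosen with earlier results of these data known. Lists are described by counts and medians, with no set test. A few genes that the rule names are not reported here. Promoters are RefSeq's, on GRCm38.p6, matched by symbol.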

Additional observations from a re-analysis of the deposited data

Results flagged for a closer look

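In each group, a mouse was looked for whose level of a named gene lay far from all others of its group, by Dixon's gap ratio on log2(CPM + 1). Chance flags about 1 in 20 groups, and 45 of 482 gene and group pairs were found, 28 of them in the lung of M00238. Values are CPM.

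The lung of M00238 was the highest of the 7 lungs for Cd74 (1435 CPM, the others 207 to 449), Vegfa (1129, the others 315 to 470), Lamb3 (179, the others 24 to 40.5), Pparg (56.5, the others 5.38 to 14.6) and Stmn2 (263, the others 60.3 to 97). It was also highest for Col1a1 (251), Col3a1 (206), Col4a5 (79.8), Dpp4 (114), Ear1 (236.9), Grb10 (43.8), Igfbp3 (53.3), Krtdap (2.88), Pmaip1 (45) and Wnt2 (55.3). It was the lowest lung for Ccnd1 (24.1, the others 299.6 to 408), Suz12 (31.5, the others 95.9 to 136), Hba-a1 (338, the others 5180 to 25545), Lama4 (6.36, the others 31.7 to 57.9) and Col4a3 (2.42, the others 23.3 to 69.4). It was also lowest for Ciita (5.9), Cspg4 (6.81), Dnmt3a (33.6), Igf1r (60.7), Igf2 (1.21), Nf1 (10.3), Peg3 (3.33) and Syp (0.606).

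The lung of M00247 was the highest for the B cell gene Pax5 (107, the others 15.9 to 33.3), the mitosis genes Top2a (183, the others 17.9 to 41.4) and Cenpe (29.5, the others 4.22 to 9.77), and Vcan (86.9, the others 3.55 to 13.2). It was the lowest for Scgb3a2 (104, the others 414 to 874). Cxcl17 was highest in the lung of M00246 (73.1), Nid2 in that of M00237 (2.03), Twist1 in that of M00248 (1.37), and Plvap (347) and Cmtm5 (0.4925) in that of M00249.

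Among the sarcomas, that of M00237 was the lowest for Hoxc6 (0.903, the others 27.2 to 44.9) and Col4a3 (0.301, the others 1.59 to 2.77) and the highest for the Wnt agonist Rspo1 (2.11). Plod2 (40.5, the others 28.5 to 31.7) and Pax5 (1.3) were highest in M00248, Lamp3 (1.04) in M00236 and Foxa1 (0.551) in M00245, where the other sarcomas had 0.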

How the results depend on the processing

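The number of genes that passed, 6520 (2817 higher, 3703 lower), stayed within 1.5 times under each alternative but 2. With the replicate block, 4024 genes passed (1696 higher, 2328 lower), and the same 4 mice without the block gave 4772. Within M00235 to M00238 there were 3006 (1104 higher, 1902 lower). Leaving out 1 mouse gave 5940 to 7276 in all, 2550 to 3405 higher and 3385 to 3871 lower, with the most without the lung of M00238. DESeq2 gave 8602, the fit without a filter 7952 (median log2 fold change of all its genes 0.12) and a mean of at least 5 CPM 5346. Each gene called both ways kept its direction under each of these settings, for example 6480 shared genes with DESeq2 and 3814 with the block. All settings used the same counts or a part of them, so this is no independent check.

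Of 240 genes followed through the alternatives, those that turned had not passed: with the block Nrg1 (log2 fold change 0.117) and Eed (0.0567), in the 4 mice without it Nrg1 (0.0107), Eed (0.0423) and Angpt2 (-0.0121), and within M00235 to M00238 Cldn4 (-0.36), Pcna (-0.59) and Snai2 (-0.0301). Calls were lost for 10 of them with the block, 30 within M00235 to M00238, among them Ccna2 and Aurkb, and 8 within M00245 to M00249. Calls were gained for 1 with the block (Pmp22), 6 without the lung of M00238 and 5 within M00245 to M00249. The fold changes of called genes, before log2 was taken, moved by over 1.5 times for 40 with the block. They did so for 65 within M00235 to M00238 and 43 within M00245 to M00249, and for 35 when 1 mouse was left out. Among the 35 were Hoxb9, Defb6, Ear1 and Ccdc153, which the text gives as ratios, and Hrnr and Aurkb, whose fold changes are not printed.

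Of 84 counts of list members, higher or lower, RLE scaling moved 0 by over 1.5 times, the block 9, and the lower and higher mouse series 31 and 15. DESeq2 moved 5 (Hox genes higher from 7 to 17, imprinted genes higher from 6 to 10, ErbB genes higher from 3 to 5, and 2 counts by a single gene). Without a filter 18 Hox genes were higher. With at least 5 CPM, fewer members could be tested, and the lower members of the T and NK cell list went from 17 to 7, of the Wnt list from 9 to 5 and of the ErbB list from 5 to 2. List medians changed sign for the Hox list (1.09, and -0.22 to -0.08 without the sarcoma of M00235, M00236, M00238, M00245 or M00248 or the lung of M00248), in 4 settings for the ErbB list (-0.98, and 0.30 with DESeq2) and 4 for the adipocyte list (-1.08, and 1.54 within M00235 to M00238), in 5 for the hepatocyte list (0.21, and -0.73 within M00235 to M00238) and in 9 for the glycolysis list (-0.07, and 0.28 within M00245 to M00249). For each the cause was not tested. Depth limits genes near 3 counts, 0.369 to 0.620 CPM in single libraries.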
